A study of Caenorhabditis elegans with 2 samples.

Results

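The HSP70 chaperone genes of Caenorhabditis elegans were examined for occupancy by CEH-40, a homeodomain transcription factor of the PBC class, the class of Hox cofactors that includes mammalian PBX. The members were 8 of 19985 protein-coding genes, chosen by symbol in the Ensembl annotation with earlier peak calls of these same data known: hsp-1, hsp-3, hsp-6, hsp-110, hsp-4, hsp-70, F44E5.4 and F44E5.5. All peaks with a summit in a member or within 2 kb of it were taken. Their calls and signals are part of that choice, so they are given as a description, without a test.

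ChIP-seq, the sequencing of DNA recovered by chromatin immunoprecipitation, was done in whole worms of strain OP232, which carries the integrated transgene wgIs232, a ceh-40 gene tagged with TY1, EGFP and FLAG, together with a copy of unc-119 that rescues the unc-119(ed3) background. The worms were young adults aged 76 h, grown from bleached eggs whose L1 larvae were starved for synchrony, and an anti-GFP antibody was used on sonicated chromatin. The labels name no separate promoter for the transgene. The design holds 1 group of 2 biological replicates, both with the transgene and the rescued unc-119 mutation, so no comparison between conditions was possible. Chromatin came from all tissues together, so strong occupancy in few cells and weak occupancy in many cannot be told apart.

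HSP70 proteins bind exposed hydrophobic stretches of unfolded polypeptides and release them in cycles of ATP hydrolysis and nucleotide exchange. J-domain proteins deliver substrates and stimulate hydrolysis, and exchange factors such as the HSP110 proteins reset the cycle. Some members are made at all times, while others are switched on by heat through the factor HSF-1, which binds heat shock elements built from alternating GAA and TTC units, or by stress of the endoplasmic reticulum (ER) through the unfolded protein response (UPR).

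The upstream sequences on which the positions below turn are printed 5′ to 3′ in the WBcel235 assembly (ce11), from RefSeq, each on the strand named. Capitals mark heat shock element pairs (GAANNTTC or TTCNNGAA, searched on both strands, overlapping matches included) and the core of the UPR element (TGACGTG, both strands). The F44E5.4-F44E5.5 sequence is the part between the genes of the strongest peak at any member, chrII:11759312-11759542 on the plus strand. The hsp-1 sequence is chrIV:17278709-17278958 on the plus strand, which holds the heat shock element lying between a pair of its peaks. The hsp-3 sequence is the upstream part of its peak, chrX:6092125-6092306 on the minus strand. The hsp-4 sequence, chrII:7352646-7352895 on the minus strand, is shown for the related ER gene without a thresholded peak, and the hsp-110 sequence is chrIII:8446910-8447159 on the minus strand.
F44E5.4-F44E5.5: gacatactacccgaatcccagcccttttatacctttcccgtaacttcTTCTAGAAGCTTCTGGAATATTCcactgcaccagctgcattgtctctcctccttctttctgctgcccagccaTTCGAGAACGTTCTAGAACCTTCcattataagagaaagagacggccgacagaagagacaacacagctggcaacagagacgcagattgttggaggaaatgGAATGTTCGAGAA
hsp-1: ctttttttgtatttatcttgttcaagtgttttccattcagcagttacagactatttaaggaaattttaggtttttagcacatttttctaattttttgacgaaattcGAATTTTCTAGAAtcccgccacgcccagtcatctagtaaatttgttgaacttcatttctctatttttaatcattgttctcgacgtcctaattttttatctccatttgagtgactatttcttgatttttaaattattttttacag
hsp-3: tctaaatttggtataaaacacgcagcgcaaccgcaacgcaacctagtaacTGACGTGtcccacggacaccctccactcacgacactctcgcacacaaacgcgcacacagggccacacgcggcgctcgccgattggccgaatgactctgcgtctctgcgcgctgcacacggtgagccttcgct
hsp-4: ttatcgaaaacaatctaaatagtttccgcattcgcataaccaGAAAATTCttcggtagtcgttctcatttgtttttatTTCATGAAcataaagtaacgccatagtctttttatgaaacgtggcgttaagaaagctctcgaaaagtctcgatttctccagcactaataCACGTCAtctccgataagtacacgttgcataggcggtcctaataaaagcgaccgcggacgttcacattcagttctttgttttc
hsp-110: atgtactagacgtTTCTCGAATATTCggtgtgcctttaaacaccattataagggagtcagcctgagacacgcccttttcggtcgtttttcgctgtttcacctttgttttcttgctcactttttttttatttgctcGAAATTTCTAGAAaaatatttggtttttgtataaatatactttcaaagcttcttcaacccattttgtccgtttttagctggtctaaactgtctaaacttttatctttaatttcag

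Peaks called on both replicates together formed a thresholded list of 867 peaks, 840 of them on the nuclear chromosomes, and a ranked list of 103174 nuclear peaks without the threshold. The threshold is an irreproducible discovery rate (IDR) of 0.01, a measure of how well peak ranks agree between a pair of peak sets. With mitochondrial peaks, 1014 ranked peaks had an IDR of at most 0.01, more than the 867 thresholded, and the sources used here do not say why. Absence from the thresholded list is thus not always a failure of this threshold. Each peak carries a signal value of the authors with no stated unit, which orders peaks within a list. Read counts are not part of these lists, and the depth behind each value is unknown. At ceh-40 itself the strongest pooled ranked peak had a signal of 42.3, and 0 peaks of the pooled thresholded list were in the gene or within 2 kb, while the thresholded list of replicate 2 held 1 there and that of replicate 1 held 0.

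A thresholded summit was found at 6 of the 8 HSP70 genes, namely hsp-1, hsp-3, hsp-6, hsp-110, F44E5.4 and F44E5.5, against 6.36% of all protein-coding genes. hsp-4 and hsp-70 had none. The authors' conservative list held a peak at the same 6 members, against 5.27% of protein-coding genes. A thresholded summit lay within 1 kb of an annotated start site at 5 members, hsp-6 being left out, against 2.69% of protein-coding genes. The list thresholded on replicate 1 alone had a summit at 3 members, hsp-1, F44E5.4 and F44E5.5, against 2.18% of genes. The list of replicate 2 alone had a summit at those and at hsp-110, 4 members against 2.12% of genes. Since the pooled peaks entered the choice of members, nothing is read from these shares.

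The strongest pooled ranked peak of a member had a median signal of 71.7 and ranged from 35.8 to 206.4, beside a median of 34.1 over the 18347 protein-coding genes with a ranked peak. In order, the strongest signals were 206.4 at F44E5.4 and F44E5.5, which share that peak, 90.5 at hsp-1, 74.9 at hsp-110, 68.4 at hsp-3, 62.5 at hsp-6, 47.8 at hsp-70 and 35.8 at hsp-4. By the signals matched to these peaks in the replicates, given with each gene below, the ranges of hsp-1 and hsp-110 overlapped. So did those of hsp-3 and hsp-6 and those of hsp-70 and hsp-4. The F44E5 peak against hsp-1, and hsp-6 against hsp-70, had ranges that did not overlap. Those of hsp-110 and hsp-3 nearly touched, at 36.03 and 35.37, and the other thresholded peak of hsp-110, at 34.4 and 46.0, overlapped hsp-3. With 2 replicates these ranges do not settle the order. The other genes with the nearest strongest signals in the thresholded list were ints-8 (210.5) above and nhr-247 and nhr-291 (203.6) below the F44E5 pair, and T03G6.3 (90.5) above and atad-3 and nrde-2 (90.2) below hsp-1. For hsp-110 they were C53H9.2, C53H9.4, egl-30 and rpl-27 above and clec-127, clec-128 and lgc-45 below, for hsp-3 B0205.9 above and klp-6 and pcf-11 below, and for hsp-6 lotr-1 and zhp-2 above and C33B4.4 below.

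**Figure D1:**
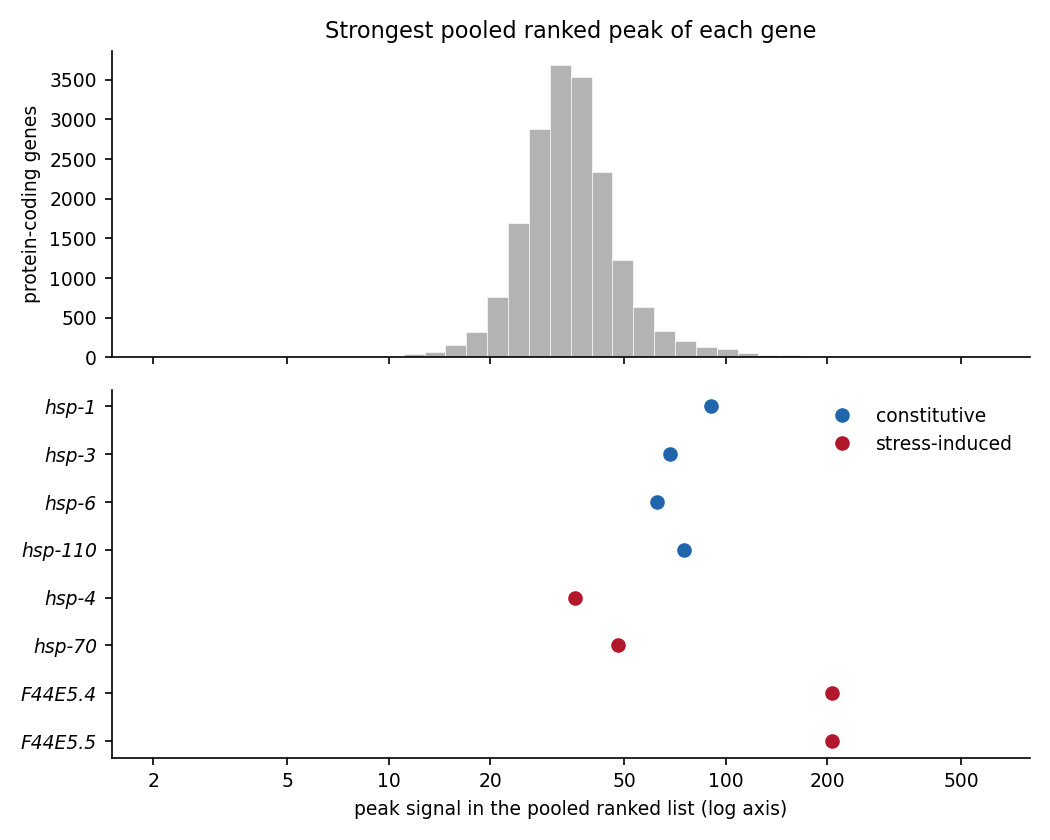
Histogram of the strongest pooled ranked peak of each protein-coding gene (upper plot, number of genes) and the same value at each HSP70 gene (lower plot, points coloured by expression class), on a log axis of peak signal. The 4 constitutive genes lie between 62.5 and 90.5, the F44E5 pair at 206.4, and hsp-70 and hsp-4 at 47.8 and 35.8, nearer the median of 34.1 over all genes.

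The 8 members had 81 distinct ranked peaks, of which 10 were thresholded, with signals from 62.5 to 206.4 and a median of 78.8, beside 67.5 over all nuclear thresholded peaks. Of these 10, 5 had a summit within 500 bp of a member's annotated start and 3 lay inside a member's transcribed span. The nearest annotated start of any gene belonged to a member at 4 of the 10 peaks and to another gene at 6. With protein-coding starts alone it belonged to a member at 8 of 10, the exceptions being the peaks nearest to adss-1 and ufbp-1. The weakest thresholded peak was that of hsp-6, with a signal of 62.5 and an IDR of 0.00307. The nearest peaks outside the threshold lay at the 3′ end of F44E5.5, with signals of 49.6 and 38.0 and IDRs of 0.0173 and 0.0378.

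**Figure D2:**
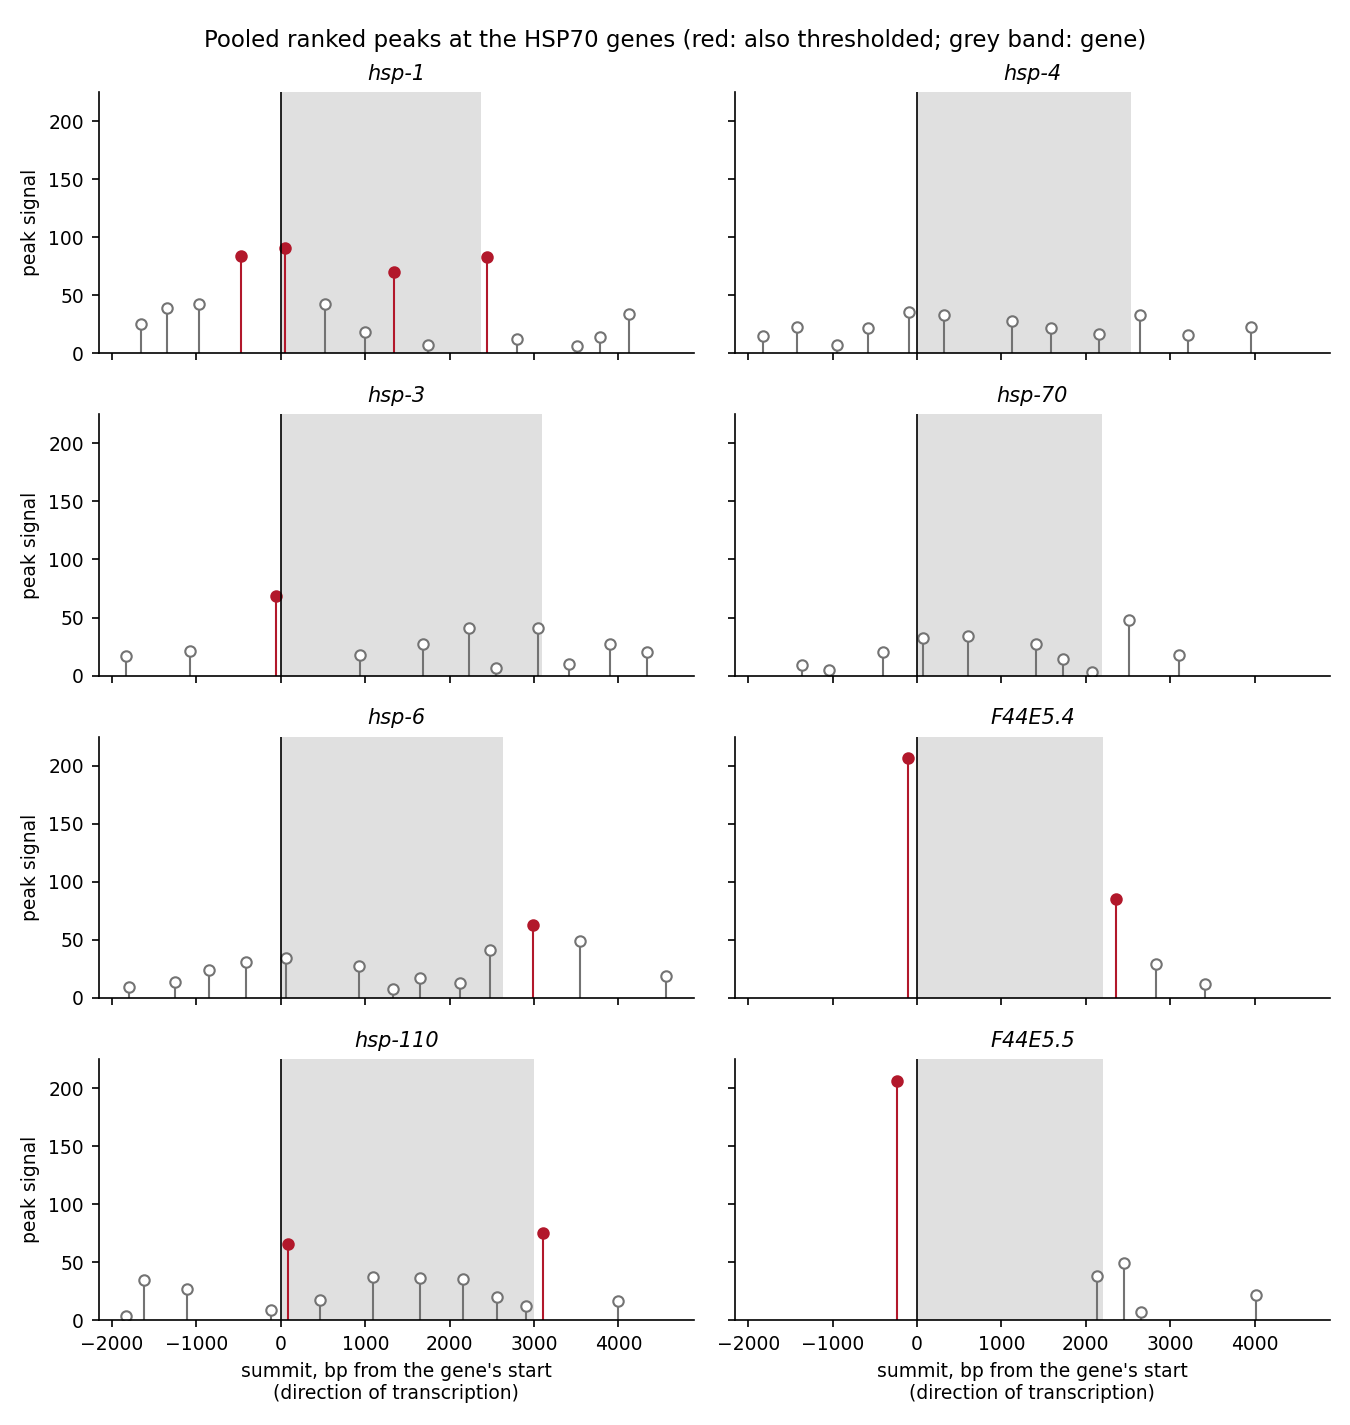
Every pooled ranked peak at the 8 HSP70 genes, plotted as peak signal against the distance of its summit from the gene's annotated start in the direction of transcription (bp). Filled red points are also thresholded, open points are ranked only, and the grey band is the gene: hsp-1 has 4 red points, and hsp-4 and hsp-70 have none.

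F44E5.4 and F44E5.5 encode cytosolic HSP70 proteins that are induced by heat. They lie head to head on chromosome II, F44E5.4 at chrII:11757107-11759311 on the minus strand and F44E5.5 at chrII:11759662-11761861 on the plus strand, with 350 bp between them. Their shared peak, chrII:11759303-11759542, had its summit at 11759423 in this intergenic stretch, 112 bp upstream of F44E5.4 and 239 bp upstream of F44E5.5. Its signal of 206.4 ranked 15th of the 840 nuclear thresholded peaks and 48th of all nuclear ranked peaks, with an IDR of 6.39e-05. The signal was 100.4 in replicate 1 and 104.5 in replicate 2, the replicate summits were 27 bp apart, and the peak was in the thresholded list of each replicate alone. Which of the genes the signal belongs to, or whether it belongs to both, cannot be told apart.

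The stretch between the F44E5 genes is dense in heat shock elements. Its 350 bp held 14 overlapping matches to the heat shock element pair, in 4 clusters, and each cluster also held the longer element of 3 alternating units. Inside the 240 bp peak there were 10 pair matches and 7 matches to the longer element, in the 3 capitalised clusters of the F44E5.4-F44E5.5 sequence above, which began 64 bp before, 8 bp after and 107 bp after the summit. In windows of 240 bp around the summit, the longer element was present at 6.55% of the 840 nuclear thresholded peaks and at 1.54% of the 103174 nuclear ranked peaks. The summit lay between a pair of clusters. The PBC-Hox site, bound by PBC proteins with Hox partners (TGATNNAT), and the MEIS site (TGACAG) were each found 0 times in the 350 bp. No match says only that these letters are not in the stretch.

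**Figure D3:**
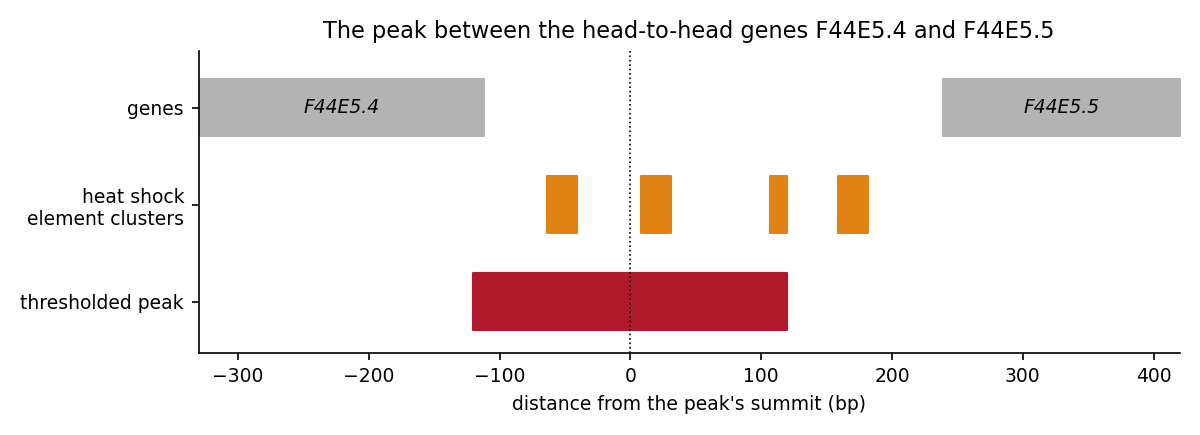
Map of the region between F44E5.4 and F44E5.5 by distance from the summit of their shared peak (bp), with the genes in grey, the 4 clusters of heat shock elements of 3 units in orange and the thresholded peak in red. The summit lies between the first and the second cluster, and the fourth cluster lies outside the peak.

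The bodies of F44E5.4 and F44E5.5 are near-identical copies. In an alignment of the genes, 2193 positions were identical, 2 were mismatched and 15 were gapped, and the coding sequences were 100% identical over 1935 bases. Only 1.84% of the 36-base words in F44E5.4 and 2.08% of those in F44E5.5 occurred once in the genome, against 98.1% to 100% in the other 6 members. The pair had 0 and 1 ranked summits inside the genes, while the other members had 4 to 7 each. The sources used here do not give the read length or the treatment of reads with several placements, and whether peaks could be called in the bodies of the pair was not tested. The stretch between the genes differs from the bodies: 86.7% of its 36-base words and 98.3% of its 50-base words were unique, and in the peak itself 87.8% and 97.9%. Over all nuclear thresholded peaks the median share of unique 36-base words was 100%.

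**Figure D4:**
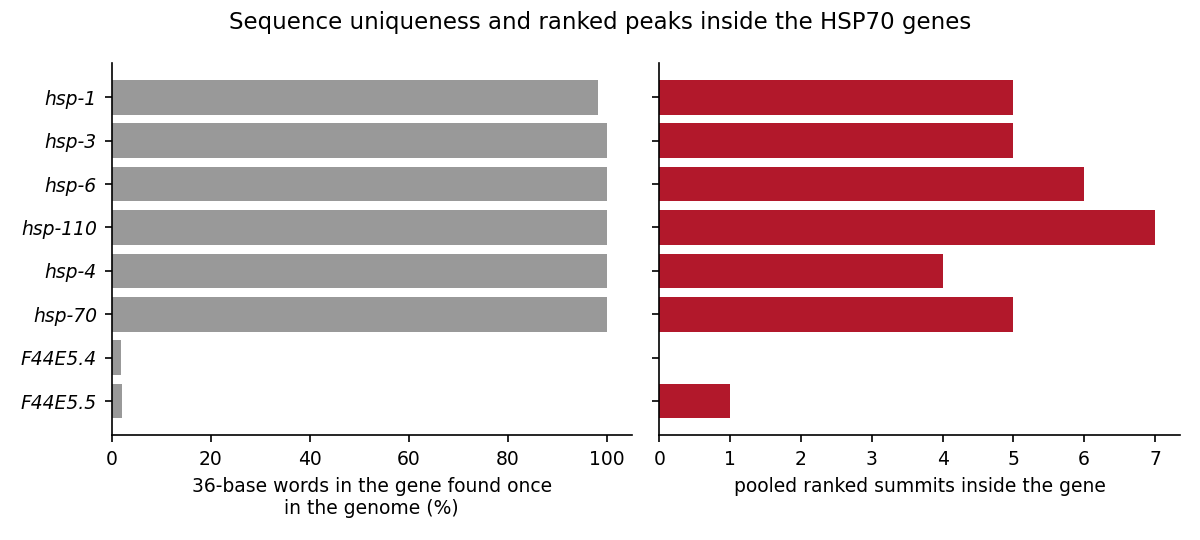
Share of the 36-base words of each HSP70 gene that occur once in the genome (left, %) and number of pooled ranked summits inside the gene (right). F44E5.4 and F44E5.5 are at 1.84% and 2.08% with 0 and 1 summits, and the other 6 genes are above 98% with 4 to 7.

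A second thresholded peak of F44E5.4, chrII:11756833-11757072, had its summit 154 bp past the 3′ end of the gene, and the nearest annotated start was that of the noncoding RNA gene F44E5.16. Its pooled signal was 85.4, but the replicates were 58.0 and 27.5, a log2 ratio of replicate 1 over replicate 2 of 1.08. This was the widest replicate difference among the members' thresholded peaks, and the peak was in the thresholded list of replicate 1 only.

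hsp-1 encodes the constitutive cytosolic HSC70, an abundant general chaperone. The gene, chrIV:17278959-17281330 on the plus strand, had 4 thresholded summits, and 4 or more were found at only 6 of the 19985 protein-coding genes (0.03%). The strongest of them, at 17279007, lay in coding sequence 48 bp past the annotated start, with a signal of 90.5. Its replicates were 60.7 and 35.4, and it was in the thresholded list of replicate 1 but not of replicate 2. Within this peak 85.9% of 36-base words were unique.

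The other hsp-1 peaks lay on either side of this one. A peak with a signal of 83.6 had its summit at 17278488, 471 bp upstream and in an exon of the noncoding RNA gene F26D10.23, with 37.2 and 42.3 in the replicates. A peak with a signal of 82.8 had its summit at 17281404, 74 bp past the end of the gene, in the 124 bp that separate hsp-1 from nra-1, with 40.96 and 37.3. The last peak, with a signal of 69.9, had its summit at 17280301 in coding sequence, 132 bp from the snoRNA gene F26D10.24 that lies within hsp-1, and it was uneven between replicates at 28.2 and 53.7. The downstream peak and this internal one were in the thresholded lists of both replicates. Both replicates therefore placed a thresholded summit inside hsp-1 and at its 3′ end, while the start and upstream peaks were in the list of replicate 1 only.

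The heat shock element of hsp-1, capitalised in the sequence above, began 144 bp upstream of the annotated start and comprised 3 units. It lay between the upstream peak and the start peak and inside neither. The printed hsp-1 sequence ends in ttacag and that of hsp-110 in tttcag at the annotated start. In C. elegans many messenger RNAs receive a spliced leader, and an annotated start can then be the trans-splice acceptor rather than the point where transcription begins, so distances from these starts need not be distances from initiation.

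hsp-110 encodes the HSP110 relative that acts as an exchange factor for HSP70. The gene, chrIII:8443910-8446909 on the minus strand, lies head to head with rpn-3, a proteasome subunit gene, across 443 bp. Its start peak had a signal of 65.7 and a summit at 8446827, in coding sequence 82 bp past the annotated start, with 34.4 in replicate 1 and 46.0 in replicate 2. The replicate summits of this peak were 135 bp apart, the widest gap among the 10, and the peak was in the thresholded list of replicate 2 only. The stronger peak, with a signal of 74.9, was only 70 bp wide and had its summit at 8443799, 111 bp past the 3′ end of hsp-110 and 192 bp upstream of ufbp-1. Its replicates were 41.8 and 36.03, and it was in neither replicate's list. The matched replicate 2 summit, at 8443885, lay outside the 70 bp of the pooled peak, which ended at 8443859. The 4 heat shock element pairs in the hsp-110 sequence form a pair of 3-unit elements, beginning 237 and 115 bp upstream, and the start peak covered neither. That peak held a UPR element core 4 bp from its summit, as 1.55% of nuclear thresholded peaks did within their 240 bp windows.

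hsp-3 and hsp-4 encode the ER forms of HSP70, known in mammals as BiP. hsp-3 is expressed constitutively and hsp-4 is the classic target of the UPR. Their coding sequences were identical at 78.1% of aligned positions. Outside the F44E5 pair, only hsp-70 with F44E5.4 or F44E5.5 was closer, at 80.6%.

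At hsp-3, chrX:6089028-6092124 on the minus strand, the single thresholded peak had a signal of 68.4 and a summit at 6092187, 63 bp upstream of the start. The replicates were even, at 32.6 and 35.4, with summits 21 bp apart, although the peak was in neither replicate's own thresholded list. The peak sequence had a UPR element core 132 bp upstream of the start and no heat shock element pair, and 58.8% of its bases were G or C, beside a median of 43.3% over the nuclear thresholded peaks. At hsp-4, chrII:7350112-7352645 on the minus strand, the strongest ranked peak had a signal of 35.8 and a summit 94 bp upstream, with 22.7 and 17.2 in the replicates and an IDR of 0.192. Its UPR element core began 83 bp upstream, close to that summit. Each of these genes has 3 annotated start sites, and the distances and promoters given are those of the outermost. At another hsp-3 start a ranked peak with a signal of 27.5 lay 29 bp past it and was not thresholded. Both ER genes had their strongest peak within 100 bp upstream of the outermost start, but only at hsp-3 was it thresholded. The difference between them was not tested, since each is a single gene.

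hsp-6 encodes the mitochondrial HSP70, an essential import and folding chaperone that is also raised by mitochondrial stress. It lies at chrV:4824124-4826760 on the minus strand. Its thresholded peak was not at its promoter but 352 bp past its 3′ end, at 4823772, which is 349 bp upstream of adss-1, encoding adenylosuccinate synthetase. The signal was 62.5 and the replicates were 29.7 and 33.2, and the peak was in neither replicate's list. Near the hsp-6 start itself there was no thresholded summit within 1 kb. Its promoter, taken as 250 bases before to 50 after the annotated start, held no heat shock element pair. A 3-unit element began 307 bp upstream, and the second of its overlapping pairs 302 bp upstream.

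hsp-70 encodes a cytosolic HSP70 strongly induced by heat. It lies at chrI:9320325-9322519 on the minus strand, within the span of uggt-2 on the opposite strand, and 2 tRNA genes lie within 2 kb. No peak at it was thresholded. The strongest ranked peak had a signal of 47.8 and an IDR of 0.384, with its summit at 9320012, in a tRNA gene 313 bp past the 3′ end of hsp-70, and 17.6 and 23.4 in the replicates. The peaks inside the gene were weaker: 33.8 at 601 bp and 32.2 at 75 bp past the start. A 3-unit heat shock element began 73 bp upstream of hsp-70.

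At the members' thresholded peaks the replicates differed in either direction, and 4 of the 10 peaks were higher in replicate 1. The log2 ratio of replicate 1 over replicate 2 ran from -0.93 to 1.08, and its median was -0.09, beside -0.08 over 832 nuclear thresholded peaks matched in both replicates. Over those 832 peaks the 10th and 90th percentiles were -0.85 and 0.57. Outside that range lay the internal hsp-1 peak (-0.93), the hsp-1 start peak (0.78) and the downstream peak of F44E5.4 (1.08). Replicate summits were 20 to 135 bp apart at the members' peaks, with a median of 49.5 bp, against 22 bp over the 832 peaks. All 10 peaks were in the conservative list, 6 in the list of replicate 1, 4 in that of replicate 2, 3 in both and 3 in neither.

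**Figure D5:**
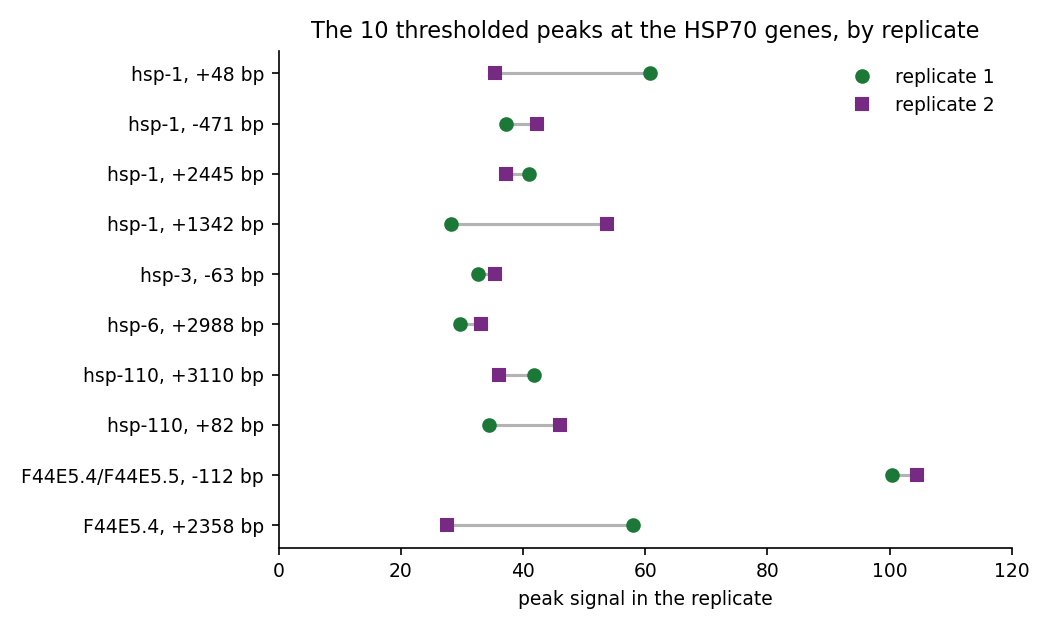
Signal of the 10 thresholded peaks at the HSP70 genes in replicate 1 (circles) and replicate 2 (squares), as matched between the replicates, with the summit's distance from the gene's annotated start in the label (bp). The shared F44E5.4 and F44E5.5 peak is near 100 in both replicates, and the hsp-1 start, internal hsp-1 and downstream F44E5.4 peaks are the most uneven.

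Grouped by expression class, the 4 constitutive members, hsp-1, hsp-3, hsp-6 and hsp-110, each had a thresholded peak, and their strongest ranked signals ran from 62.5 to 90.5 with a median of 71.7. The 4 stress-induced members, hsp-4, hsp-70, F44E5.4 and F44E5.5, ran from 35.8 to 206.4 with a median of 127.1. The stress-induced values fell on either side of the constitutive ones: hsp-4 and hsp-70 were below all 4 of them and the F44E5 pair above all 4. Some of these values come from peaks nearer to other genes' starts. The strongest peaks of hsp-6 and hsp-110 lay past the 3′ end, upstream of adss-1 and ufbp-1, and that of hsp-70 lay in a tRNA gene. The difference of medians, constitutive minus stress-induced, was -55.4, but the F44E5 pair contributed 1 shared peak, and with that peak counted once, an alternative added after the values were seen, the difference was 23.9. With an order that rests on how 1 peak is counted, the classes are given as values only.

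A heat shock element pair was present in the promoters of 6 members, hsp-1, hsp-110, hsp-4, hsp-70, F44E5.4 and F44E5.5, and in 32.5% of 19973 promoters of protein-coding genes. The 3-unit element was present in 5, the same genes without hsp-4, and in 1.97% of promoters. The promoters of F44E5.4 and F44E5.5 overlap in the 350 bp between the genes, so elements there are counted for both members. Of the 10 thresholded peaks, 4 held a pair, beside 24.2% of the nuclear thresholded peaks, and only the shared F44E5 peak held the 3-unit element. The promoters of hsp-1, hsp-110 and hsp-70 hold the 3-unit element without a thresholded peak over it. The PBC-Hox site was in 0 of the 8 promoters and 0 of the 10 peaks, beside 23.6% of promoters and 10.1% of nuclear thresholded peaks. From 500 bases before to 100 after the start it was present at 3 members, hsp-70, F44E5.4 and F44E5.5, and at 40.4% of genes. At F44E5.4 and F44E5.5 the match lay beyond the stretch between them, inside the near-identical body of the opposite gene. The MEIS site was in 0 promoters and 1 peak, beside 9.68% and 7.86%. A motif match is a description of letters and not evidence of binding.

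Among 79 other genes of the chaperone network found in the annotation, 20 had a thresholded summit in the gene or within 2 kb, beside 6.36% of all protein-coding genes, with strongest signals from 47.9 to 126.8. The classes below hold few genes each, and counts of 0 or 1 in them are near what that share gives. Several of them share peaks, so these were 16 distinct summits, of which 7 lay within 500 bp of any annotated start of the gene, internal starts included. The median strongest ranked signal was 44.0 over the listed genes with a ranked peak, beside 34.1 over protein-coding genes with one. The listed genes hsf-1, cct-3, dnj-4, dnj-15, dnj-26, dnj-27, dnj-29 and dnj-30 had no ranked peak in the gene or within 2 kb. They are counted as genes without a peak, and whether one could be called there was not tested.

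The direct partners of HSP70 were among them. Of 29 J-domain genes, 4 had a peak: dnj-28 (126.8, 102 bp upstream), dnj-13 (105.3, 234 bp upstream), dnj-12 (95.4, past its 3′ end) and dnj-9 (69.2, 217 bp upstream). The dnj-12 summit was 2468 bp from the gene's nearest start, closest to the start of tmem-107 and 119 bp from a small RNA gene. For dnj-13 the closest start was that of F54D5.22. The dnj-28 peak had no match between the replicates, and the dnj-9 peak was uneven, with 22.7 in replicate 1 and 45.4 in replicate 2. Of 3 exchange factor genes found, bag-1 (61.8, 125 bp upstream) and unc-23 (60.4) had a peak. The bag-1 peak was higher in replicate 1, with 39.1 against 25.4. The unc-23 summit lay inside the gene, 9 bp upstream of an internal annotated start. None of the other 4 genes of the HSP70 superfamily, stc-1, F11F1.1, T14G8.3 and T24H7.2, and none of 10 genes of the HSP90 system had one in this list. The conservative list held a peak at 2 of those 10, hsp-90 and ahsa-1. Among the 29 J-domain genes it held a peak at only 2, dnj-12 and dnj-13, beside 5.27% of protein-coding genes. It also held peaks at bag-1 and unc-23.

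Among the other chaperone classes, 5 of 10 chaperonin genes had a peak. They were hsp-60, the mitochondrial chaperonin (65.9, 624 bp upstream), and Y22D7AL.10 (71.5, past its 3′ end). The cytosolic subunit genes were cct-4 (57.6, 129 bp past the start), cct-7 (82.1, past its 3′ end) and cct-8 (79.1, 439 bp upstream). The closest start was that of Y22D7AL.10 for the hsp-60 summit and that of Y55F3AR.2 for the cct-8 summit. Of 14 small heat shock protein genes 8 had one. They include hsp-16.1, hsp-16.11, hsp-16.48 and hsp-16.49 around a peak with a signal of 81.9. Its summit at chrV:9088987 lay between hsp-16.48 and hsp-16.49, past the 3′ end of each. This summit was 1205 bp upstream of hsp-16.1 and 1090 bp upstream of hsp-16.11. A further peak, with a signal of 58.3, was within 2 kb of hsp-16.1 and hsp-16.48. Its summit at chrV:9086808 lay past the 3′ end of hsp-16.1. In the bodies of these hsp-16 genes 0% of 36-base words were unique, against 100% in the stronger peak and 84.4% in the weaker one. The others were hsp-12.3 and hsp-12.6, which share a peak (49.3) 78 bp from a small RNA gene, hsp-17 (47.9) and sip-1 (67.3). The shared peak lay past the 3′ ends of hsp-12.3 and hsp-12.6, with 15.3 in replicate 1 and 41.3 in replicate 2. The sip-1 summit lay inside the gene, closest to the start of F43D9.8, with 16.3 and 40.5. The hsp-17 summit also lay inside its gene, with 30.5 and 32.2. Of 9 genes for stress regulators, xbp-1 alone, the UPR transcription factor gene, had a peak (76.2), and its summit at chrIII:4195496 lay past the 3′ end of the gene. In the conservative list the chaperonin genes with a peak numbered 4 of 10, without cct-4. The small heat shock protein genes there numbered 5 of 14, without hsp-12.3, hsp-12.6 and sip-1, and xbp-1 was kept.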

How the data were processed

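The authors deposited peak lists only, on ce11 per the labels: thresholded, conservative and ranked lists of both replicates, and lists of each replicate. Each deposited signal is the authors' own value per peak, in a unit that is not stated, and orders peaks within a list only. The deposited score and the -log10 IDR beside it follow the peak's reproducibility. The deposited lists carry no counts, so depth is unknown. Neither aligner nor peak caller is given in the sources used here. The signals of each replicate come from the ranked list matched between replicates, whose 2 signal columns equalled values of the lists of replicate 1 and replicate 2 at 35740 and 41183 of 77932 peaks and crosswise at 0. For the 10 thresholded member peaks both signals were in the replicates' own lists (within 0.001).

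Genes came from Ensembl release 115 and sequence from RefSeq, both WBcel235, and 27 mitochondrial thresholded peaks were left out. A summit counted for every gene it lay in or within 2 kb of. Motifs, word uniqueness (36 and 50 bases) and global alignments (Biopython 1.88) were computed with Python 3.11.15. Peak assignment, the search for heat shock element pairs and the uniqueness of 36-base words were tested on simulated data, and the alignments were not. With 1 group, no test was run. Members and lists were chosen with earlier results of these data known. Named genes were the members, genes whose start is nearer to a member's summit, chaperone genes with a thresholded peak, small RNA genes within 1 kb and genes ranking next to each member. Of 85 listed chaperone symbols, 79 gave a gene, some being aliases. Alternatives were other windows, lists, start sites and motif lengths.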

Additional observations from a re-analysis of the deposited data

How the results depend on the processing

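With 2 replicates, 1 group and no counts, only descriptions were possible, and the replicate lists are much shorter than the pooled one. The number of members with a peak was 3 and 4 in the lists of a single replicate and 5 or 6 under the other alternatives. The chaperone network genes with a peak numbered 4 and 13 in the lists of a single replicate and 15 to 25 otherwise. The median percentile of the members' strongest peaks was 99.55 in the pooled ranked list, 98.94 and 98.96 in those of a single replicate, 99.39 in the list matched between replicates and 99.52 with mitochondrial peaks. The constitutive minus stress-induced difference of medians, -55.4, was -24.4 and -23.3 in the lists of a single replicate, -138.0 with hsp-4 counted as constitutive and -61.9 with a window of 5 kb. It reversed to 12.5 with hsp-6 counted as stress-induced, and to 23.9 without F44E5.4, without F44E5.5, or, chosen after seeing the data, with their shared peak counted once. Leaving out each member in turn gave -134.8 to 23.9. The summits nearest to a member's start numbered 4 of 10 with all genes and 8 with protein-coding genes only. The promoters with a heat shock element numbered 5 to 7, and the median log2 replicate ratio over all ranked member peaks stayed between -0.17 and -0.04.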
